A study of Mus musculus with 4 samples.

Results

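A set of 10 T lineage genes was followed in RNA of sorted splenic follicular B (FOB) cells as a measure of T cell RNA in the sort. The 10 members, Cd3d, Cd3e, Cd3g, Cd4, Cd8a, Cd8b1, Lck, Thy1, Trbc2 and Bcl11b, were chosen by gene symbol from the 55401 genes of the count table, and each had counts in all 4 libraries. FOB cells were taken from the spleen of C57BL/6 mice of 7 weeks by the gate B220+CD93-CD23highCD21low, which names no T cell marker. WT mice were Hnrnpf fl/fl without Cre, and Hnrnpf KO mice were Hnrnpf fl/fl with Cre expressed in B cells (Hnrnpf bKO), with 2 libraries for each genotype. All mice therefore carried floxed alleles of Hnrnpf, the gene of an RNA-binding protein that regulates splicing. Exon 4 of Hnrnpf is thereby deleted in B lineage cells, and T cells are not the target of the deletion. The groups also differ in the presence of Cre itself, whose effect cannot be told apart from that of the deletion. The sources do not say whether a library came from 1 mouse or from pooled mice, so p-values measure the spread between these libraries alone.

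A T cell recognizes antigen through a receptor made of variable chains, most often alpha and beta, which cannot signal by themselves. The CD3 chains carry the signal into the cell, the coreceptors CD4 and CD8 bind the MHC molecule that presents the antigen, and the kinase LCK, held at the coreceptors, starts the phosphorylation cascade. B cells use an analogous receptor built from immunoglobulin and the CD79 chains, and do not assemble a T cell receptor. Transcripts of the CD3 chains are therefore commonly used as a marker of T cells in a sorted B cell sample. In RNA of a bulk sample, fewer cells of a type and less RNA per cell cannot be told apart.

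The libraries held between 15698567 and 18908963 counts. Hnrnpf itself had 5780 and 6634 counts in WT against 1167 and 1194 in Hnrnpf KO, a log2 fold change of -2.32. The B cell identity of the samples was clear in every library. Cd79a and Cd79b, the signaling chains of the B cell receptor, had the highest levels among 10 B cell genes, and Cd79a lay between 1495 and 1597 FPKM (counts per kilobase of exon, scaled to the library total). No library went against its label.

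The members lie on 4 chromosomes of the GRCm38 build. Cd3g, Cd3d and Cd3e stand side by side on chromosome 9, within 40.1 kb between 44969572 and 45009627, and Thy1 is on the same chromosome at 44043384 to 44048579. A further 4 members are on chromosome 6, which also carries Hnrnpf: Trbc2 (41546730 to 41548352), Cd8b1 (71322788 to 71337494), Cd8a (71373427 to 71379173) and Cd4 (124864692 to 124888221). The nearest of these to Hnrnpf is Cd4, at 6.94 Mb. Lck is on chromosome 4 (129548344 to 129573641) and Bcl11b on chromosome 12 (107910403 to 108003602).

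Trbc2 encodes a constant region of the T cell receptor beta chain, and it has a close neighbor, Trbc1, that encodes the other one. The sequences of the pair are shown because they decide how far reads can be assigned to one of them. Exon 1 has 375 bases in each gene (chr6:41538218-41538592 in Trbc1 and chr6:41546730-41547104 in Trbc2, both on the + strand) and differs at 1 base, C260A, counted from 1 at the start of exon 1 and written with the base of Trbc1 first. Bases 201 to 320 of exon 1, from GRCm38 by the GENCODE transcripts, are given with that base in capitals.
Trbc1, chr6:41538418-41538537: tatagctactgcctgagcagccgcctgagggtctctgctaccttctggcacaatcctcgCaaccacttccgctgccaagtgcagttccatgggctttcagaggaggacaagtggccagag
Trbc2, chr6:41546930-41547049: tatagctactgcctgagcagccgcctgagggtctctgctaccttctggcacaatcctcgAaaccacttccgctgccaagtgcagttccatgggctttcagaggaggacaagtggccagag
Exon 3, of 107 bases, differs at 15 positions, which are again in capitals.
Trbc1, chr6:41539229-41539335: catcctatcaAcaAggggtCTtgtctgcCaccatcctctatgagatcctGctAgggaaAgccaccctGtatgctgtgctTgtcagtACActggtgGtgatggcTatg
Trbc2, chr6:41547772-41547878: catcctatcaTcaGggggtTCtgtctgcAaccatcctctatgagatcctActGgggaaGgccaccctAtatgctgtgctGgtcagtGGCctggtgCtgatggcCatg
Of the 226 stretches of 150 bases within exon 1, 110 (48.7%) were identical between the genes, with a longest identical run of 259 bases. That share holds for single reads of 150 bases. The study sequenced read pairs, and a mate that reaches a difference can place its pair. Read pairs that lie wholly in identical sequence cannot be assigned to Trbc1 or Trbc2. The split between the genes is therefore uncertain, and their sum is given beside Trbc2. Among the other members, only Cd8b1 and Cd3e had a match to another transcribed gene of at least 100 bases at 90% identity or more. Cd8b1 had such matches to 433 other genes, the longest of 171 bases or 11.5% of its exonic length. In Cd3e the match was to the antisense gene Gm48719, which shares 135 bases of exon with it. Gm48719 had 1 and 2 counts in WT against 0 and 7 in Hnrnpf KO. Without a strand mark the reads of such a pair cannot be told apart.

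T lineage transcripts were present at a low level in every library. The summed FPKM of the 10 members was 35.7 in WT 1, 48.8 in WT 2, 31.8 in Hnrnpf KO 1 and 42.1 in Hnrnpf KO 2. This amounted to 2.38%, 3.26%, 1.99% and 2.66% of the FPKM of Cd79a alone. In reads, the members took 93.9 CPM (counts scaled to the library total) in WT 1 (95% Wilson interval 89.4 to 98.8), 121.0 in WT 2 (116.1 to 126.1), 79.8 in Hnrnpf KO 1 (75.5 to 84.3) and 100.1 in Hnrnpf KO 2 (95.6 to 104.9). The intervals cover counting error only and leave out the spread between libraries. They are too narrow where reads are copies made by PCR, which could not be told from separate molecules. WT 2 was the highest library and Hnrnpf KO 1 the lowest, and the ranges of the genotypes overlapped. The mean of the sum was 42.2 ± 9.23 FPKM (SD, n = 2) in WT and 36.9 ± 7.28 FPKM (SD, n = 2) in Hnrnpf KO, so that Hnrnpf KO was at 87.4% of WT, a difference smaller than the SD of either genotype.

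Lck alone made up 49.9% and 42.0% of the summed FPKM in WT against 48.0% and 38.4% in Hnrnpf KO. Without Lck, the sum was 17.9 and 28.3 FPKM in WT and 16.5 and 25.9 FPKM in Hnrnpf KO. The remaining 9 members thus differed more between libraries of one genotype, by a factor of 1.58 in WT and 1.57 in Hnrnpf KO, than between the genotype means, of which Hnrnpf KO was at 91.8% of WT. For Lck the factors were 1.15 in WT and 1.06 in Hnrnpf KO.

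**Figure D1:**
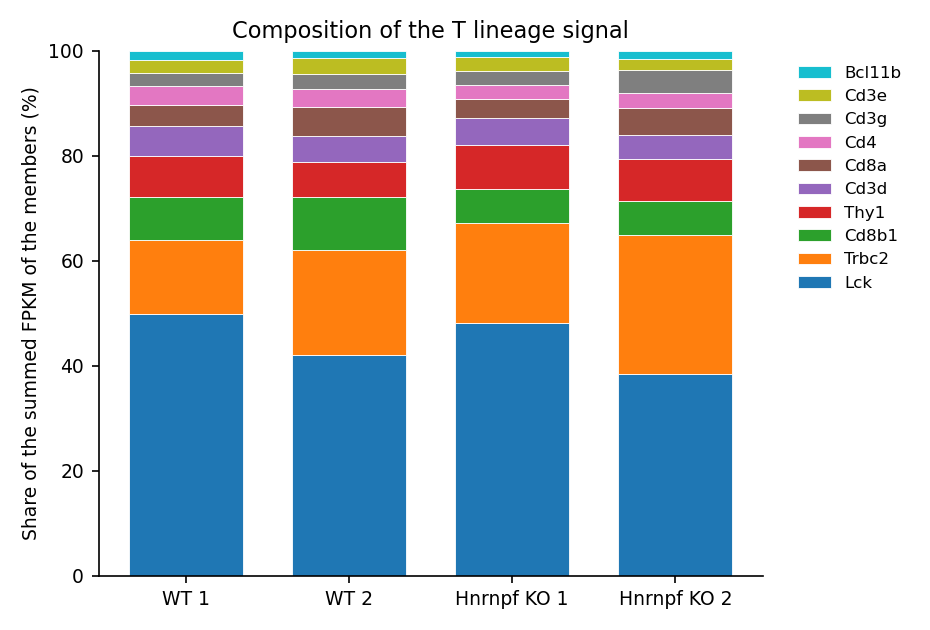
Share of the summed FPKM of the 10 T lineage genes (percent) that each gene contributed in each of the 4 libraries. Lck took from 38.4% to 49.9% and Trbc2 from 14.1% to 26.6%, and the other 8 genes shared the rest.

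Ordered by the mean FPKM over the 4 libraries, a scale that takes account of exonic length, Lck (17.4) was the highest member, ahead of Trbc2 (8.02), Cd8b1 (3.16), Thy1 (3.04), Cd3d (2.0), Cd8a (1.85), Cd4 (1.25), Cd3g (1.25), Cd3e (1.02) and Bcl11b (0.58). The libraries of neighbors in this order did not overlap between Lck and Trbc2, Trbc2 and Cd8b1, Thy1 and Cd3d, and Cd3e and Bcl11b. The other neighbors overlapped over the 4 libraries and do not differ beyond that spread, although Cd8a was above Cd4 within each library. Lck exceeded 77.0% of the 14123 genes that passed the filter on low counts, whose median was 6.03 FPKM. Trbc2 exceeded 56.8% of them, and Bcl11b 11.8%. All 10 members passed that filter.

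**Figure D2:**
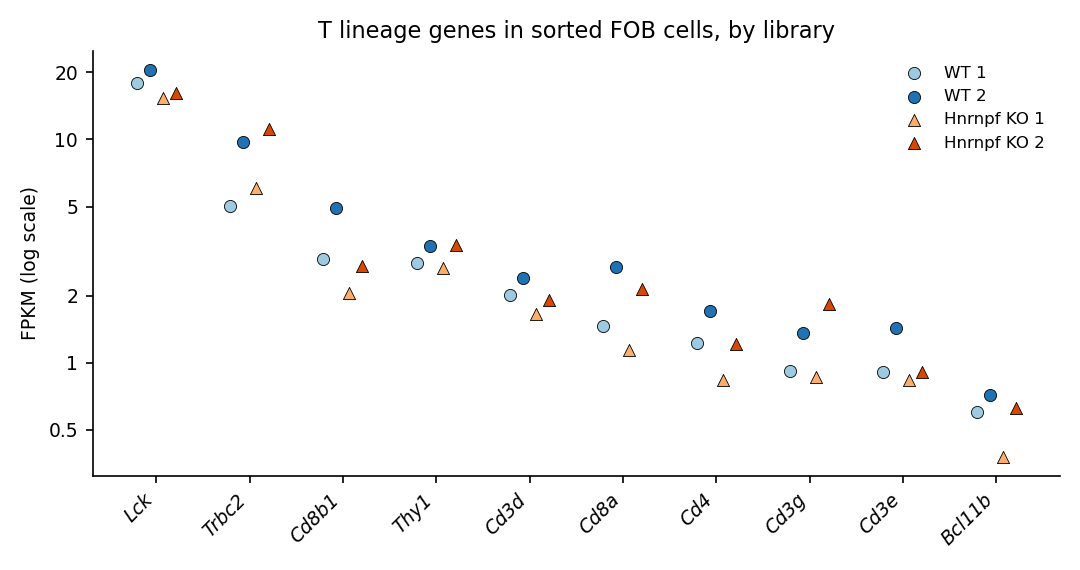
FPKM (log axis) of each T lineage gene in the 2 WT libraries (circles) and the 2 Hnrnpf KO libraries (triangles), ordered by mean level, with the darker symbol for library 2 of each genotype. Library 2 lay above library 1 for all 10 genes in both genotypes, and the genotypes overlapped for 6 of the 10.

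Among the CD3 chains, Cd3d, Cd3e and Cd3g, which pair in the receptor complex, were all found at about 1 to 2 FPKM. Cd3d was at 2.02 and 2.39 FPKM in the WT libraries and at 1.65 and 1.92 FPKM in the Hnrnpf KO libraries. Both Hnrnpf KO libraries lay below both WT libraries, but the difference did not pass the test (log2 fold change -0.29, SE 0.26, adjusted p = 0.586, quasi-likelihood test of edgeR, adjusted by Benjamini-Hochberg over the 14123 genes). Cd3e was at 0.91 and 1.43 FPKM in WT and at 0.84 and 0.91 FPKM in Hnrnpf KO, where WT 1 and Hnrnpf KO 2 had the same value (log2 fold change -0.41, SE 0.27, adjusted p = 0.431 by the same edgeR test). Without WT 2 its log2 fold change was -0.05, and without WT 1 it was -0.68. The third chain, Cd3g, was at 0.92 and 1.36 FPKM in WT and at 0.86 and 1.84 FPKM in Hnrnpf KO, with its highest and its lowest value both in Hnrnpf KO (log2 fold change 0.27, SE 0.34, edgeR adjusted p = 0.712).

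The 3 CD3 chains together summed to 3.85 and 5.18 FPKM in WT and 3.35 and 4.67 FPKM in Hnrnpf KO, with Hnrnpf KO at 88.8% of WT. In 1 library Cd3g departed from Cd3e. The ratio of Cd3g to Cd3e FPKM was 1.01 in WT 1, 0.95 in WT 2 and 1.02 in Hnrnpf KO 1, and 2.02 in Hnrnpf KO 2. The counts behind that ratio were 109 for Cd3g and 67 for Cd3e.

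Trbc2 was at 5.03 and 9.78 FPKM in the WT libraries and at 6.08 and 11.2 FPKM in the Hnrnpf KO libraries. The libraries of a genotype differed by a factor of 1.94 in WT and 1.84 in Hnrnpf KO, and the genotypes overlapped (log2 fold change 0.23, SE 0.32, edgeR adjusted p = 0.744). Trbc1 was at 5.14 and 6.85 FPKM in WT and 4.59 and 5.02 FPKM in Hnrnpf KO, so that the ratio of Trbc2 to Trbc1 ran from 0.98 in WT 1 to 2.23 in Hnrnpf KO 2. Reads that fit both genes may be counted in neither, since their handling is not stated, and the genes differ in exonic length. The sum of both genes can therefore still depend on how such reads were treated. It was 10.2 and 16.6 FPKM in WT and 10.7 and 16.2 FPKM in Hnrnpf KO. These pairs of values were nearly alike, with Hnrnpf KO at 100.3% of WT.

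Cd4 and Cd8 mark the helper and the cytotoxic lineage of alpha beta T cells, and transcripts of both were present. Cd4 was at 1.23 and 1.71 FPKM in WT and at 0.84 and 1.21 FPKM in Hnrnpf KO. The genotypes did not overlap, although WT 1 and Hnrnpf KO 2 lay next to each other (log2 fold change -0.50, SE 0.25, 95% interval -1.05 to 0.04, edgeR adjusted p = 0.288). Cd8a was at 1.46 and 2.68 FPKM in WT and at 1.14 and 2.13 FPKM in Hnrnpf KO, and the genotypes overlapped (log2 fold change -0.32, SE 0.30, edgeR adjusted p = 0.607).

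Cd8b1, which encodes the beta chain of the CD8 dimer and is more restricted to T cells than the alpha chain, had the largest fold change of the members. Its level was 2.93 and 4.92 FPKM in WT and 2.06 and 2.72 FPKM in Hnrnpf KO, without overlap. The means were 3.92 ± 1.41 FPKM in WT and 2.39 ± 0.467 FPKM in Hnrnpf KO (SD, n = 2), and the difference did not pass the test (log2 fold change -0.70, SE 0.28, 95% interval -1.30 to -0.10, unadjusted p = 0.0255, edgeR adjusted p = 0.167). This result depended on a single library. Without WT 1, Cd8b1 had a log2 fold change of -1.02 and passed the threshold (edgeR adjusted p = 0.0255), whereas over all 4 omissions of a library its log2 fold change ran from -1.02 to -0.27.

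Cd8a exceeded Cd4 in every library, with an FPKM ratio of 1.19 in WT 1, 1.57 in WT 2, 1.36 in Hnrnpf KO 1 and 1.76 in Hnrnpf KO 2. The ratio was higher in library 2 of each genotype and overlapped between the genotypes. Cd8a and Cd8b1 summed to 4.39 and 7.60 FPKM in WT and to 3.20 and 4.85 FPKM in Hnrnpf KO, with Hnrnpf KO at 67.1% of WT. This was the largest shortfall among the groups of members that were summed, and the sum of Hnrnpf KO 2 still lay above that of WT 1.

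Lck, the Src family kinase of the coreceptors, was the most abundant and most precisely measured member. Its counts were 854 and 1133 in WT against 702 and 855 in Hnrnpf KO, or 17.8 and 20.5 FPKM against 15.3 and 16.2 FPKM. Both Hnrnpf KO libraries lay below both WT libraries, with means of 19.1 ± 1.87 and 15.7 ± 0.622 FPKM (SD, n = 2). The log2 fold change of -0.27 (SE 0.09, 95% interval -0.46 to -0.09) had an unadjusted p of 0.00689 and did not pass after adjustment (edgeR's quasi-likelihood test, adjusted p = 0.0769).

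Lck did not keep a fixed proportion to the other members. The ratio of Lck to Cd3e FPKM was 19.6 in WT 1, 14.3 in WT 2, 18.2 in Hnrnpf KO 1 and 17.7 in Hnrnpf KO 2. As background, Lck is also known from B cells, in particular from the B-1 subset, whereas the CD3 chains are not. How much of the Lck signal came from which cells was not tested.

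Thy1, a glycoprotein of the T cell surface in the mouse, was nearly level across genotypes. It was at 2.80 and 3.32 FPKM in WT and at 2.66 and 3.38 FPKM in Hnrnpf KO, so that the WT values lay between those of Hnrnpf KO (log2 fold change -0.00, SE 0.18, 95% interval -0.38 to 0.38, edgeR adjusted p = 0.993). Bcl11b, the transcription factor that commits progenitors to the T lineage, was the lowest member at 0.60 and 0.72 FPKM in WT and 0.38 and 0.63 FPKM in Hnrnpf KO. Hnrnpf KO 1 stood below the other libraries, and the genotypes overlapped (log2 fold change -0.38, SE 0.26, edgeR adjusted p = 0.467). Its log2 fold change was -0.06 without Hnrnpf KO 1 and -0.81 without Hnrnpf KO 2.

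None of the 10 members was called between genotypes, that is, none had both an edgeR adjusted p up to 0.05 and a 2-fold change or more, beside 0.899% of all genes tested. An adjusted p up to 0.05 was found in 0 of 10 by edgeR, beside 6.97% of all genes. Cd8b1 and Lck were under an unadjusted p of 0.05, which makes 2 of 10 beside 20.3% of all genes. DESeq2 called 0 members, beside 57 higher and 16 lower of 23692 genes. By DESeq2 1 member was under an unadjusted p of 0.05, for which no share over all genes was taken. In Cd3d, Cd4, Cd8b1 and Lck both Hnrnpf KO libraries lay below both WT libraries, 4 of 10 beside 24.8% of all genes. The log2 fold change was below 0 in 8 members and above it in 2, Cd3g and Trbc2, beside 50.4% of all genes below 0. The median over the members was -0.31, and it was -0.00 over all genes tested. The members' median moved with each library, to -0.11 without WT 2, -0.12 without Hnrnpf KO 1, -0.44 without Hnrnpf KO 2 and -0.45 without WT 1.

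The 95% intervals of 8 members lay within a 2-fold change in either direction, and those of Cd8b1 and Cd4 reached a 2-fold decrease. The counts of the members other than Lck ran from 44 to 188 per library, and the median SE of a member's log2 fold change was 0.26. The p-values above the threshold do not show that the genotypes had the same level.

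**Figure D3:**
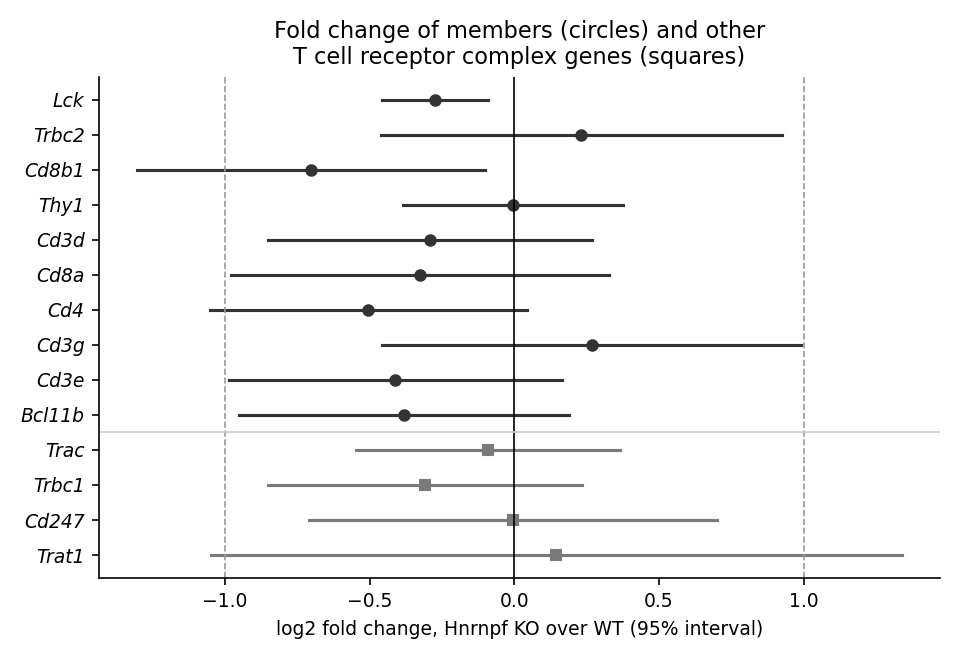
log2 fold change of Hnrnpf KO over WT with 95% intervals from edgeR for the 10 T lineage genes (circles) and 4 further genes of the T cell receptor complex (squares), with dashed lines at a 2-fold change. The intervals of Cd8b1 and Lck lie below 0, and all others include 0.

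The libraries of one genotype differed in a shared way. All 10 members were higher in WT 2 than in WT 1 and higher in Hnrnpf KO 2 than in Hnrnpf KO 1, beside 23.0% of all genes tested. In WT the factor ran from 1.15 for Lck to 1.94 for Trbc2, with 1.84 for Cd8a and 1.68 for Cd8b1. In Hnrnpf KO it ran from 1.06 for Lck to 2.14 for Cd3g, with 1.87 for Cd8a and 1.84 for Trbc2. The highest level was in WT 2 for 7 members and in Hnrnpf KO 2 for 3, while 9 had their lowest level in Hnrnpf KO 1. WT 2 and Hnrnpf KO 2 were also the deeper library of their genotype, and the part of depth in this pattern was not tested. Library numbers do not mark a shared day or litter in the labels, and members of one cell type are not independent of each other.

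Of 9 further genes of the T cell receptor complex, 4 passed the filter on low counts. By edgeR 0 of them passed at an adjusted or an unadjusted p of 0.05 (DESeq2 0, limma 0 at an adjusted p of 0.05), and their median log2 fold change was -0.05. Over all genes at that adjusted p, DESeq2 gave 620 of 23692 and limma on log2(FPKM + 0.1) gave 45 of 13570. A 0 by limma in a short list therefore says little about its genes. Trac, the constant region of the alpha chain, was at 5.43 and 6.39 FPKM in WT and at 5.59 and 5.44 FPKM in Hnrnpf KO (log2 fold change -0.09, SE 0.21, edgeR adjusted p = 0.861). Cd247, the zeta chain, was at 0.46 and 0.82 FPKM in WT and 0.50 and 0.77 FPKM in Hnrnpf KO (log2 fold change -0.00, SE 0.33, edgeR adjusted p = 0.997). Trac thus stayed within a narrow range while Trbc2 varied, with a ratio of Trbc2 to Trac of 0.93, 1.53, 1.09 and 2.06 over the 4 libraries.

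Constant regions of the gamma delta receptor were close to the limit of detection. Trdc had 10 and 4 counts in WT against 4 and 6 in Hnrnpf KO, and Trgc1, Trgc2 and Trgc4 had between 0 and 11 counts in any library. These genes and Ptcra were chosen from the list after their values were seen. Ptcra, the partner of the beta chain in thymocytes, had no count in 3 libraries and 1 in Hnrnpf KO 2, where a count of 0 allows up to 0.183 CPM in WT 1, 0.159 in WT 2 and 0.191 in Hnrnpf KO 1.

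The variable and joining segments of the T cell receptor were counted gene by gene in the same table. Of 252 segments, 110 had a count in some library and 0 passed the filter. Together they had 148 and 219 counts in WT against 91 and 179 in Hnrnpf KO, or 9.05 and 11.6 against 5.80 and 9.90 CPM. The sum was lowest in Hnrnpf KO 1 and highest in WT 2, and the genotypes overlapped. Beta variable segments gave 67 and 103 counts in WT against 37 and 74 in Hnrnpf KO, and alpha variable segments gave 38 and 57 against 32 and 56. Alpha joining segments gave 19 and 27 counts against 4 and 10, without overlap, and beta joining segments 21 and 26 against 18 and 34. These classes were not tested. The counts were spread over 64, 67, 43 and 64 segments in the 4 libraries, and no segment had more than 15 counts. Gamma and delta variable segments had at most 6 counts in any library.

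Of 30 genes of T cell receptor signaling and the T cell surface, 27 were tested. With an edgeR adjusted p up to 0.05, 2 rose and 1 fell, beside 6.97% of all genes in either direction. None was called at a 2-fold change. At that adjusted p DESeq2 gave 3, beside 620 of 23692 genes, and limma 0, beside 45 of 13570. The 2 that rose, Grap2 and Carmil2, were far above the members in level, and which cells this RNA came from was not tested. Grap2, an adaptor of the LAT and SLP-76 complex, was at 51.1 and 51.8 FPKM in WT and at 66.4 and 70.1 FPKM in Hnrnpf KO (log2 fold change 0.42, SE 0.05, edgeR adjusted p = 0.000318). Carmil2, a regulator of the actin cytoskeleton in costimulation, was at 64.6 and 68.0 FPKM in WT and at 79.1 and 82.5 FPKM in Hnrnpf KO (log2 fold change 0.30, SE 0.05, edgeR adjusted p = 0.00375). In both genes the libraries of the genotypes did not overlap, which adds no separate support since the genes were picked by adjusted p.

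Cd27, a TNF receptor family member found on T cells and on some B cells, fell from 10.6 and 9.75 FPKM in WT to 5.28 and 5.82 FPKM in Hnrnpf KO (log2 fold change -0.86, SE 0.12, edgeR adjusted p = 0.000826). Cd2, an adhesion receptor that mouse B cells also carry, was the highest gene of the list at 75.8 to 78.3 FPKM and did not pass the test (log2 fold change 0.02, SE 0.05, edgeR adjusted p = 0.917). The list's median log2 fold change was -0.07. Of the 27 tested genes, 12 were higher in library 2 of both genotypes, beside 23.0% of all genes. Zap70 and Lat, a kinase and an adaptor downstream of Lck, were chosen after their values were seen. Zap70 was at 1.68 and 2.79 FPKM in WT and 1.92 and 2.31 FPKM in Hnrnpf KO. Lat was at 2.50 and 3.96 FPKM in WT and 2.79 and 4.06 FPKM in Hnrnpf KO.

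Transcription factors of T cells gave no call. Of 12 genes, 11 were tested, and 0 passed an adjusted p of 0.05 by edgeR (DESeq2 0, limma 0). Under an unadjusted p of 0.05 by edgeR were 3, beside 20.3% of all genes. The median log2 fold change of the list was -0.20. The highest were Runx3 (20.2 to 22.6 FPKM over the libraries), Zbtb7b (19.4 to 21.2 FPKM) and Satb1 (up to 13.9 FPKM). All lay well above Bcl11b, and which cells their RNA came from was not tested. Of 14 NK cell and cytotoxic genes, 10 were tested, and 0 passed by edgeR at an adjusted or an unadjusted p of 0.05 (DESeq2 0, limma 0 at an adjusted p of 0.05). Their highest genes were the chemokine gene Ccl5 (3.95 to 5.11 FPKM), Gzma (1.48 to 3.79 FPKM) and Prf1 (1.80 to 2.47 FPKM), the last a pore-forming protein of cytotoxic cells. The summed level of this list was 13.7 and 15.8 FPKM in WT and 17.0 and 16.1 FPKM in Hnrnpf KO, with the lowest value in WT 1.

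Markers of other blood cells were measured in the same libraries. Of 10 neutrophil genes, 6 were tested and 4 rose and were called, beside 0.899% of all genes. They were S100a8, S100a9, Ngp and Ltf, products of neutrophils and their granules. Their log2 fold changes ran from 1.34 to 1.86, with edgeR adjusted p between 0.00454 and 0.0129. DESeq2 also gave 4 of the list at an adjusted p of 0.05, beside 620 of 23692 genes. Limma gave 0, beside 45 of 13570. The summed neutrophil level was 14.1 and 20.1 FPKM in WT and 32.2 and 55.8 FPKM in Hnrnpf KO. The T lineage sum was lowest in Hnrnpf KO 1, while in Hnrnpf KO 2 (42.1 FPKM) it lay above WT 1 (35.7 FPKM). Myeloid genes (16, of which 9 were tested) had 0 at an adjusted p of 0.05 by edgeR (DESeq2 0, limma 0). At an unadjusted p of 0.05 by edgeR they had 2, beside 20.3% of all genes. They summed to 15.8 and 17.3 FPKM in WT and 13.6 and 16.2 FPKM in Hnrnpf KO, led by Cd68, Lyz2 and Ly6c2. Among the myeloid markers, Cd14 and Fcgr1 had 0 to 3 counts, whereas Adgre1, Csf1r, Itgam and Itgax had 15 to 67 counts in every library. Among the neutrophil markers, Ly6g, Elane and Mpo had 0 to 2 counts in 3 libraries and 7 to 13 in Hnrnpf KO 2, while Csf3r was at 30 to 41 counts and Retnlg at 6 to 12 counts with overlapping genotypes. These markers were named after their values were seen. The part of these cells in any result was not tested.

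**Figure D4:**
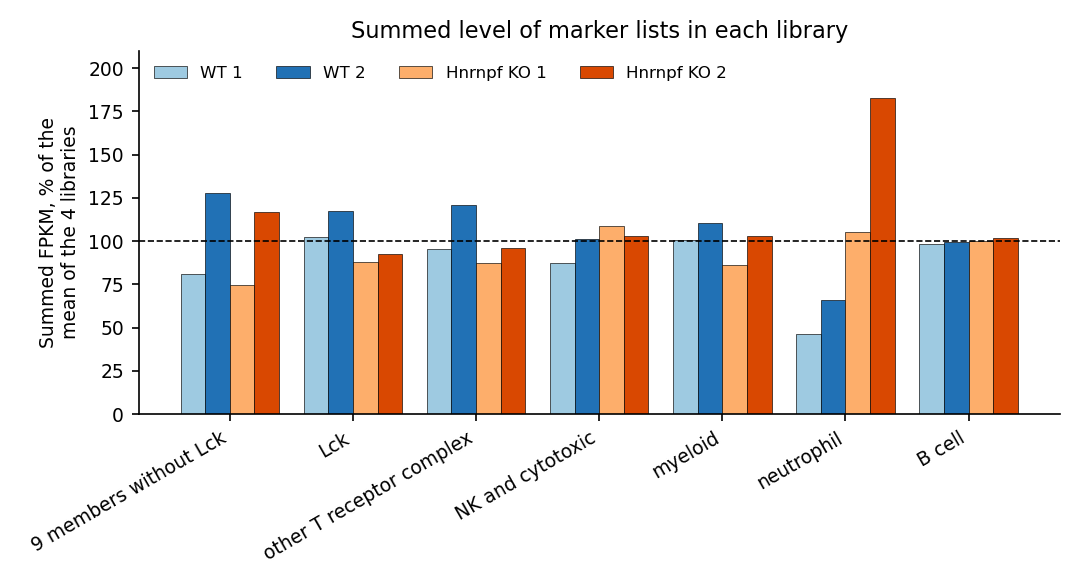
Summed FPKM of marker lists in each library, as a percent of the mean over the 4 libraries (dashed line at 100%). The 9 T lineage genes without Lck lie between 74.5% and 128% with library 2 of each genotype above the line, the neutrophil list is at 46.1% and 65.8% in WT and at 105% and 183% in Hnrnpf KO, and the B cell list stays between 98.6% and 102%.

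Erythroid genes (8, of which 5 were tested) included 1 that fell at an adjusted p up to 0.05, beside 6.97% of all genes. It was Car2, a carbonic anhydrase, at 4.92 and 3.14 FPKM in WT and 2.08 and 2.15 FPKM in Hnrnpf KO (log2 fold change -0.91, SE 0.22, edgeR adjusted p = 0.0268). By DESeq2 and by limma 0 genes of the list passed an adjusted p of 0.05. The globin genes Hbb-bs and Hba-a1 were at 0.55 to 2.47 FPKM. Of 6 platelet genes, 1 was tested, Itga2b, at 0.30 to 0.67 FPKM with an edgeR adjusted p of 0.215, while Gp9 and Ppbp were at 0 to 0.26 FPKM. Plasma cell genes (6, of which 5 were tested) had 0 at an adjusted or an unadjusted p of 0.05 by edgeR (DESeq2 0, limma 0 at an adjusted p of 0.05), with Irf4, Xbp1 and Sdc1 as the highest. Genes higher in library 2 of both genotypes made 23.0% of all genes tested. In the lists they were 3 of 4 other T cell receptor complex genes and 5 of 11 T cell transcription factors. They were 4 of 6 neutrophil, 3 of 9 myeloid, 2 of 10 NK cell and cytotoxic and 3 of 5 plasma cell genes. The rest were 0 of 5 erythroid, 0 of 1 platelet, 2 of 10 B cell and 3 of 8 other B cell subset genes. The neutrophil sum differed between libraries by a factor of 1.43 in WT and 1.73 in Hnrnpf KO, against 1.37 and 1.32 for the summed members. Without Lck, the factors of the summed members were 1.58 in WT and 1.57 in Hnrnpf KO.

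B cell genes served as the reference for the sort. The 10 genes summed to 4277 and 4308 FPKM in WT and 4350 and 4421 FPKM in Hnrnpf KO. Cd79a and Cd79b made the largest parts. By edgeR 9 of the 10 were under an unadjusted p of 0.05, beside 20.3% of all genes. Both Hnrnpf KO libraries lay below both WT libraries in 6 genes, beside 24.8% of all genes. They lay above them in 3, with Cd79a among these (log2 fold change 0.10, edgeR adjusted p = 0.221). The share of all genes in that direction was not counted. At an adjusted p up to 0.05, 1 rose and 4 fell, beside 6.97% of all genes in either direction. Fcer2a, which encodes the CD23 of the gate, rose (log2 fold change 0.22, edgeR adjusted p = 0.0180). Cr2, which encodes the CD21 of the gate, fell with Ms4a1, Ebf1 and Pax5, by log2 fold changes from -0.47 for Cr2 to -0.20 for Pax5. Among 9 genes of other B cell subsets, 8 were tested and Vpreb3 was the highest. Cd93 and Cd1d1 rose and Dtx1 fell at an edgeR adjusted p up to 0.05, beside 6.97% of all genes. Cd93, whose product the gate excludes, was at 1.26 and 1.76 FPKM in WT and 2.49 and 2.93 FPKM in Hnrnpf KO (log2 fold change 0.85, edgeR adjusted p = 0.00661). DESeq2 gave 5 B cell genes and 3 genes of other subsets at an adjusted p of 0.05, beside 620 of 23692 genes. Limma gave 0 of each, beside 45 of 13570.

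Genes with a profile most like that of the members were taken from the 9872 other tested genes whose mean count reached 100, by the summed squared distance of centered log2 CPM over the 4 libraries. The 5 nearest to the summed members were Mpp6, Pdxp, Stx1a, Pinx1 and Il2rb, at summed squared distances of 0.00344 to 0.00696. Il2rb, a receptor chain for IL-2 and IL-15 on T and NK cells, was at 2.28 and 2.82 FPKM in WT and 1.9 and 2.53 FPKM in Hnrnpf KO. Mpp6 was at 2.01 and 2.60 FPKM in WT and 1.69 and 2.04 FPKM in Hnrnpf KO. With 4 libraries, closeness of this kind is a description and carries no test.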

How the data were processed

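The study sequenced RNA of FOB cells sorted by FACS, with 2 WT and 2 Hnrnpf KO samples. According to the submitters' processing notes and the study's methods, the authors used bcl2fastq 2.17.1.14, FastQC 0.10.1, cutadapt 1.9.1, HISAT2 2.0.1 on GRCm38 and HTSeq 0.6.1. The library kit marks no strand, and the strand setting and annotation release are not given in the sources used here. The deposited counts are whole reads per gene, not normalized. The authors derived the deposited FPKM from exonic length, library total and the counts. The deposited splicing table holds the authors' own comparison (FDR and inclusion level difference) and was not used.

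Counts were compared with edgeR 4.0.16 in R 4.3.3 (TMM, filterByExpr, quasi-likelihood F test, Benjamini-Hochberg adjustment over 14123 genes). The study's methods name DESeq2, and DESeq2 1.42.0, RLE size factors, other filters, limma 3.58.1 on log2(FPKM + 0.1) and log2(FPKM + 1), a replicate block and each library left out were alternatives. FPKM levels were summed without a test. The fits were tested on simulated counts. Totals were 15698567 to 18908963 counts, and the biological coefficient of variation was 5.90%. One gene of the B cell list is not reported here, and the list was computed without it. Members and lists were chosen with earlier results of these data known. Besides the members and Hnrnpf, the 3 highest genes of each list by mean FPKM, every list gene with an adjusted p up to 0.05, and the 5 genes most like the members were to be named. Exon sequences and overlaps were taken from GENCODE on GRCm38, with matches found by blastn 2.17.0.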

Additional observations from a re-analysis of the deposited data

How the results depend on the processing

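Over the RLE, DESeq2, filter, limma and replicate block alternatives, all 70 log2 fold changes of the members kept their direction and stayed short of a call, and 0 members were called. The number of members at an adjusted p of at most 0.05 was 0, except 2 without a filter on low counts (Lck at 0.0249 and Cd8b1 at 0.0453). With each library left out, where the lone library is assumed to vary like the other group, 0 to 1 members were called and 0 to 2 had an adjusted p of at most 0.05. The higher values came without WT 1, where Cd8b1 was called, and Lck and Cd8b1 passed on adjusted p. The sign turned for Cd3g (-0.41 to 0.71, without Hnrnpf KO 2), for Cd8a (-0.86 to 0.18) and Thy1 (-0.20 to 0.16) without WT 2 or Hnrnpf KO 1, and for Trbc2 (-0.29 to 0.80) without WT 1 or Hnrnpf KO 2. The sign held for Cd3d (-0.41 to -0.16), Cd3e (-0.68 to -0.05), Cd4 (-0.81 to -0.25), Cd8b1 (-1.02 to -0.27), Lck (-0.36 to -0.17) and Bcl11b (-0.81 to -0.06). The cause was not tested. The log2 ratio of the summed level, -0.19, was -0.24 on summed CPM, -0.30 without Trbc2, -0.13 without Thy1, Lck and Bcl11b, and from -0.41 to 0.05 with a library left out. The median log2 fold change of the members ran from -0.45 (without WT 1) to -0.11 (without WT 2).

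With the replicate block, 0 members were called and 3 were under an unadjusted p of 0.05, for which no share over all genes was taken. The labels do not pair the samples by number. The deviations of same-numbered libraries correlated at r = -0.0903 across 9875 genes, which are not independent replicates. That value, taken over many genes, cannot exclude a factor shared by same-numbered libraries in some of them. Over all genes, 91 were called higher and 36 lower in Hnrnpf KO, against 57 and 16 with DESeq2, 17 and 5 or 16 and 3 with limma (pseudocounts 0.1 and 1), 150 and 67 without a filter and 71 and 27 with the block. Genes at an adjusted p of at most 0.05 were 985, against 620 with DESeq2, 45 and 41 with limma, 1470 without a filter and 612 with the block. Among the lists, DESeq2 gave 3 genes of T cell receptor signaling and the T cell surface, 4 neutrophil genes, 5 B cell genes, 3 genes of other B cell subsets and 0 erythroid genes at an adjusted p of at most 0.05, against 3, 4, 5, 3 and 1 by edgeR. With limma at a pseudocount of 0.1 these lists gave 0 each, beside 45 of 13570 genes. Counts of 44 to 188 limit every member but Lck.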
